A study of Mus musculus with 10 samples.

Results

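Kupffer cells, the resident macrophages of the liver sinusoids, were compared with macrophages of the small intestine on Illumina mouse bead arrays. The comparison used 3 of the 10 arrays of the series: 1 array of Kupffer cells and 2 of small intestinal macrophages. All cells came from untreated male C57BL/6 mice of 8 to 10 weeks, and no group carried an engineered allele. The other 7 arrays were of peritoneal, alveolar, splenic red pulp and adipose tissue macrophages and of bone marrow-derived macrophages grown for 7 days with M-CSF. All 7 entered the normalisation, the choice of probe for each gene and the set of transcripts tested. Of them, the peritoneal and adipose pairs also entered the estimate of the spread between arrays. Members of the comparison were the probes with a detection p-value under 0.01 on at least 1 of the 3 arrays, which held for 13567 of 46632 probes. With the brightest probe standing for each gene, they stood for 11036 transcripts, of which 8046 were named genes (of 17711 named genes on the array) and 2990 were probes without a gene name. The labels do not say how the cells were purified or whether the intestinal arrays came from separate animals, so the p-values measure the spread between arrays, which may be technical.

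Kupffer cells sit inside the blood vessels of the liver, where they take up bacteria, worn-out red cells and lipoproteins from portal blood. They are known for complement receptors and lectins that catch particles under flow, for recycling of heme iron and for a programme that depends on liver X receptor alpha and on signals of the BMP and TGF-beta family. Macrophages of the small intestinal wall live under the epithelium and in the muscle layer. They are known for CX3CR1, high MHC class II, replacement of many of them by blood monocytes, and a restrained response to microbes that depends on interleukin 10 and TGF-beta signalling.

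Levels below are log2 normalised signals, in which 1 unit is a 2-fold difference, and differences are Kupffer minus intestine with the standard error (SE) of the fit. Since Kupffer cells had 1 array, that array was assumed to vary like the intestinal, peritoneal and adipose pairs. The Kupffer array detected 10705 probes and the intestinal arrays 12196 and 12231. Its raw median signal was 98.1, against 157 and 159 on the intestinal arrays. Raw medians of the 10 arrays fell into a dimmer set (89.8 to 108), which held the Kupffer array, and a brighter set (136 to 166), which held both intestinal arrays, so tissue and array brightness cannot be told apart in these 3 arrays alone. Only the peritoneal arrays, with 1 in each set, allow the brightness set to be fitted as a block. A level can also differ between bulk samples because fewer cells of a type are present or because each cell holds less of the RNA, and these cannot be told apart.

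In limma's fit, 4147 of the 11036 members (37.6%) differed at a Benjamini-Hochberg adjusted p under 0.05: 1791 (16.2%) were higher in Kupffer cells and 2356 (21.3%) were higher in the intestine. Among the 8046 named genes, 2944 (36.6%) were called, 1234 (15.3%) higher in Kupffer cells and 1710 (21.3%) in the intestine. The difference was at least 2-fold for 1264 and 1648 of the called members, and at least 10-fold, with undetected levels taken at their bound, for 86 and 118. The excess on the intestinal side lay in the members that only 1 tissue detected. Of the 8101 members detected on all 3 arrays, 1207 were higher in Kupffer cells and 1115 in the intestine. Another 537 were detected only on the Kupffer array, of which 488 were called, and 1654 only on both intestinal arrays, of which 1119 were called; detection chose these members, so their direction is a description, and the list counts given later hold such members too. The intestinal arrays differed from each other by an SD of 0.22 over members, the peritoneal arrays by 0.51, and the Kupffer array from the intestinal mean by 1.26. At the edge of the detection rule, 53 probes just inside it had a median highest level of 5.86 and 170 just outside it had 5.94.

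The split between directions depended on how the arrays were put on 1 scale. With medians aligned in place of quantiles, the median difference of the members moved from -0.09 to -0.97, and 512 members were higher in Kupffer cells against 4652 in the intestine. Kupffer cells then held 9.91% of the calls, compared with 43.2% in the quantile-normalised fit. Without intestine replicate 1 the counts were 1030 and 1337, without intestine replicate 2 they were 1035 and 1425, and without either peritoneal array 2708 were higher in Kupffer cells and 3508 in the intestine. Fitted with the brightness set as a block, 1696 were higher in Kupffer cells and 2104 in the intestine. Of the 1791 and 2356 calls without the block, 1238 and 1674 were kept, and no member called in 1 direction was called in the other.

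**Figure D1:**
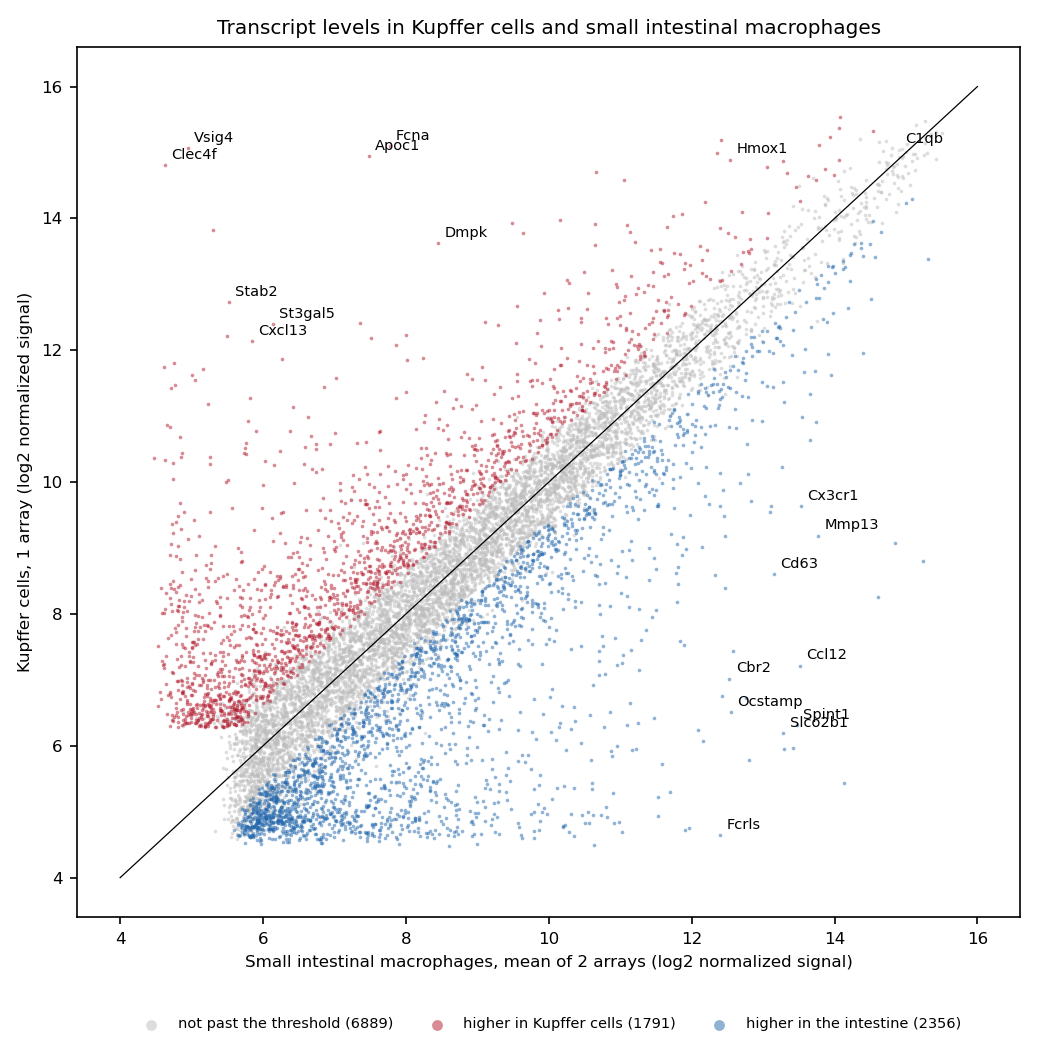
Level of each of the 11036 members on the Kupffer array (vertical axis, log2 normalised signal) against the mean of the 2 intestinal arrays (horizontal axis, log2 normalised signal), with called members coloured by direction. Clec4f and Vsig4 lie near 15 on the Kupffer axis and near 5 on the intestinal axis, while Spint1, Ccl12 and Slco2b1 lie above 13 on the intestinal axis and near 6 or 7 on the Kupffer axis.

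Both samples carried the general macrophage genes. All 16 measured pan-macrophage genes were detected on an intestinal array and 15 on the Kupffer array, and 10 did not pass the test. Of the 16, 25% were higher in Kupffer cells and 12.5% in the intestine, compared with 15.3% and 21.3% of all named genes. Fcer1g, the signalling chain shared by Fc receptors, read 14.56 in Kupffer cells and 14.69 and 14.65 in the intestine, the complement chain C1qb of another list read 15.04 against 15.03 and 14.78 and neither passed. Adgre1, the gene of a classical macrophage surface antigen, was higher in Kupffer cells by 1.39 ± 0.25 (SE, adjusted p = 0.00593), as were Tlr4 by 1.49, Mertk by 1.70 and the lysosomal protease cathepsin D (Ctsd) by 2.45. Cd63, a tetraspanin of late endosomes, was lower in Kupffer cells (8.60 against 13.08 and 13.22), as was the integrin chain Itgam, which was not detected on the Kupffer array. The split of 4 against 2 turned to 1 against 5 when medians were aligned, and was 6 against 5 without either peritoneal array. Csf1r and Cd68 were not analysed here.

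The Kupffer array carried the markers of its label. Of 20 Kupffer cell identity genes detected on at least 1 of the 3 arrays, 11 were detected on all 3, all 11 of them higher on the Kupffer array with a median difference of 2.95, and 9 were detected on the Kupffer array only. These lists were drawn up with results of these data known, so the counts are not independent evidence of direction. Timd4, a phosphatidylserine receptor, read 11.53 in Kupffer cells against 9.74 and 9.73, and the ferroportin gene Slc40a1 read 15.19 against 12.37 and 12.46. Marco, a scavenger receptor for bacteria, read 10.39 against 5.00 and 4.70, not detected in the intestine, which made it at least 23.2-fold higher. Cd5l, another Kupffer marker, was detected on 0 of the 10 arrays and gives no information here.

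The intestinal arrays carried most of their own markers. Of 22 intestinal identity genes, 16 were higher in the intestine and 3 in Kupffer cells, and of the 15 detected on all 3 arrays 10 and 2 were. Cx3cr1, the fractalkine receptor, read 9.64 in Kupffer cells and 13.59 and 13.47 in the intestine, 14.8-fold higher there (adjusted p = 1.63e-05). The integrin chain Itgax (CD11c) was at least 19.3-fold higher and Cd4 at least 4.87-fold higher in the intestine, both not detected on the Kupffer array. Il10, the anti-inflammatory cytokine that intestinal macrophages are known for, went the other way: it read 10.77 in Kupffer cells and 9.57 and 9.69 in the intestine, 2.21-fold higher in Kupffer cells (adjusted p = 0.00514). The adhesion molecule Vcam1 was 2.41-fold higher in Kupffer cells, while Il10ra, the receptor chain for interleukin 10, was 2.80-fold higher in the intestine. The mannose receptor Mrc1 (14.01 against 13.70 and 13.72) and Lyve1 (8.87 against 8.65 and 9.08) did not pass.

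The largest differences on the Kupffer side were those of Vsig4 and Clec4f. Vsig4, a receptor for complement C3 fragments, read 15.06 on the Kupffer array and 4.91 and 4.98 on the intestinal arrays. Clec4f, a C-type lectin that marks Kupffer cells in the mouse, read 14.81 against 4.70 and 4.56. Neither was detected in the intestine, so the fold is a lower bound: at least 593-fold for Vsig4 and at least 498-fold for Clec4f (adjusted p = 1.63e-06 and 3.42e-06). On the intestinal side, Spint1, an inhibitor of membrane serine proteases, read 6.31 in Kupffer cells and 13.43 and 13.51 in the intestine, 143-fold higher there (adjusted p = 4.99e-06). Slco2b1, an organic anion transporter, read 6.19, not detected, against 13.38 and 13.19, at least 128-fold higher. In each of the 4 genes both intestinal arrays lay on the same side of the Kupffer array, as they did for 10190 of all 11036 members.

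The promoters of these 4 genes are shown because they lead the comparison in each direction. Each sequence runs from 250 bases before the RefSeq transcript start to 50 bases after it (GRCm38.p6, 5′ to 3′ on the gene's strand). Vsig4 lies at chrX:96293389-96293688 (minus strand), Clec4f at chr6:83656067-83656366 (minus strand), Spint1 at chr2:119237110-119237409 (plus strand) and Slco2b1, at 1 of its 3 listed starts, at chr7:99711291-99711590 (minus strand). Capitals mark GAGGAA, the ETS core that PU.1 binds, and TGAGTCA, the AP-1 site, on either strand.
Vsig4: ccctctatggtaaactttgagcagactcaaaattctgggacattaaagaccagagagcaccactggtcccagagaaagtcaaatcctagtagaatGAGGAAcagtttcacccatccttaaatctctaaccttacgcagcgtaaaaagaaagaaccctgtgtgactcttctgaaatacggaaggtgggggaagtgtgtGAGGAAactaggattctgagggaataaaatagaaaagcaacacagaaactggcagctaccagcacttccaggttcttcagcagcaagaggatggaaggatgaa
Clec4f: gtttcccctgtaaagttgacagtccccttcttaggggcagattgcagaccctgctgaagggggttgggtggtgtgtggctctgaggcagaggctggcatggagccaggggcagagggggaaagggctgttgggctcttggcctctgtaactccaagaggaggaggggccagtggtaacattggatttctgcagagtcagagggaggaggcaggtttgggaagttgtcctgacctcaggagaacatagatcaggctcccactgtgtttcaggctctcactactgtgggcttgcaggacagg
Spint1: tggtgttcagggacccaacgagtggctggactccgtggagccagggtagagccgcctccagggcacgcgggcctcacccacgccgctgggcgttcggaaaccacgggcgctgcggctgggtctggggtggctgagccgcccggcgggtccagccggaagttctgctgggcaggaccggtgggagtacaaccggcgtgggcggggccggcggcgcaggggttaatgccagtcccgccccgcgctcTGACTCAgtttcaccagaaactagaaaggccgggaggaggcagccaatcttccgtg
Slco2b1: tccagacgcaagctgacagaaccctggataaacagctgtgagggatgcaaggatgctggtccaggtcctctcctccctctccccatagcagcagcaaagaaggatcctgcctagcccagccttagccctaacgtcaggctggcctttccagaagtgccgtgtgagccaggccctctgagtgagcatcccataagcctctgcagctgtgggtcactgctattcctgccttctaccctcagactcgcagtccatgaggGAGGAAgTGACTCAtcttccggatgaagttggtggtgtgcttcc
Vsig4 held GAGGAA at 2 places, Spint1 held the AP-1 site once, Slco2b1 held both next to each other, and Clec4f held neither in this window. Among the genes named by size of difference, 14 of 18 on each side had a promoter in the table. GAGGAA occurred in 4 of the 14 Kupffer genes and 8 of the 14 intestinal genes, compared with 28.3% of all 27025 genes, and TGAGTCA in 2 and 4, compared with 5.17%. The AGGTCA element of nuclear receptors occurred in 4 and 4 (16% of all genes) and the E-box CACGTG in 0 and 1 (7.24%). These matches describe letters in a window and not binding.

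The 10 largest differences among Kupffer genes detected on all 3 arrays ran from 4.39 to 7.46. Apoc1, an apolipoprotein and liver X receptor target, read 14.94 in Kupffer cells and 7.47 and 7.49 in the intestine, 176-fold higher (SE 0.32, adjusted p = 1e-05). Fcna (ficolin A), a secreted lectin that starts the complement cascade, read 15.10 against 7.80 and 7.74, 160-fold higher. The GM3 ganglioside synthase St3gal5 read 12.39 against 5.98 and 6.30, and prostacyclin synthase Ptgis read 11.87 against 6.50 and 6.05. All 4 stood far outside the intestinal range. Dmpk, a serine/threonine kinase, read 13.62 against 8.40 and 8.50, and the folate receptor Folr2 read 13.94 against 9.45 and 9.52. The others of the 10 were the lectin Clec4g, the water channel Aqp1, the LIM protein Crip2 and the tetraspan membrane protein Ms4a8a, each at least 20.9-fold higher.

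Genes detected in Kupffer cells and on no intestinal array included several surface receptors and adhesion molecules. Stab2, a hyaluronan scavenger receptor, was at least 118-fold higher (12.73 against 5.74 and 5.30). The vascular cadherin Cdh5 was at least 82.1-fold higher (12.21 against 5.41 and 5.59). The B cell chemokine Cxcl13 read 12.14 against 5.84 and 5.84, at least 78.0-fold higher. The lectin Cd207 (langerin), at least 59.7-fold higher, lies next to Clec4f on chromosome 6 with no protein-coding gene between them. Mat1a, the liver-type methionine adenosyltransferase that hepatocytes use, was at least 62.0-fold higher and the transporter Slc16a9 at least 58.1-fold higher. Stab2, Cdh5 and Clec4g are also markers of liver sinusoidal endothelium, whose other markers are given with the other cell types below. Of the 18 Kupffer genes named by size, 10 had their highest level of all 10 arrays in Kupffer cells. Fcna was not among those 10: it read 15.14 in splenic and 15.02 and 14.90 in adipose tissue macrophages.

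On the intestinal side, the genes detected on all 3 arrays with the largest differences ran from -4.49 to -7.16. Ccl12, a chemokine for CCR2-bearing monocytes in the mouse, read 7.21 in Kupffer cells and 13.50 and 13.54 in the intestine, 79.0-fold higher there (adjusted p = 3.92e-06). Ocstamp, a membrane protein of osteoclast fusion, read 6.51 against 12.58 and 12.51. The anthrax toxin receptor Antxr2 read 6.72 against 12.73 and 12.80. Mmp13, a collagenase, read 9.19 against 13.71 and 13.83, 24.0-fold higher. Apol7c of the apolipoprotein L family, the carbonyl reductase Cbr2, the aspartic protease Napsa, Cd63 and Havcr2 (TIM-3) completed the 10, each at least 22.5-fold higher.

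Among genes detected on both intestinal arrays and not in Kupffer cells, Slco2b1 was followed by Jaml and Fcrls. Jaml, an adhesion molecule of leukocytes, was at least 92.2-fold higher (5.78 in Kupffer cells, 12.72 and 12.89 in the intestine). Fcrls, an Fc receptor-like scavenger receptor, was at least 69.3-fold higher, with a larger SE (0.71) because the peritoneal arrays differed by 2.10 at this gene. The gelatinase Mmp2 was at least 58.6-fold, Itgae (CD103) at least 55.8-fold and the membrane protease Adam19 at least 49.6-fold higher. Mylk, the myosin light chain kinase of smooth muscle, was at least 30.8-fold and the adhesion protein Emb at least 26.0-fold higher. For 14 of the 18 intestinal genes named by size, both intestinal arrays were above the other 8 arrays. The exceptions included Cbr2 and Cd63, which were higher still in adipose tissue macrophages (14.41 and 14.46, and 13.94 and 14.23).

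**Figure D2:**
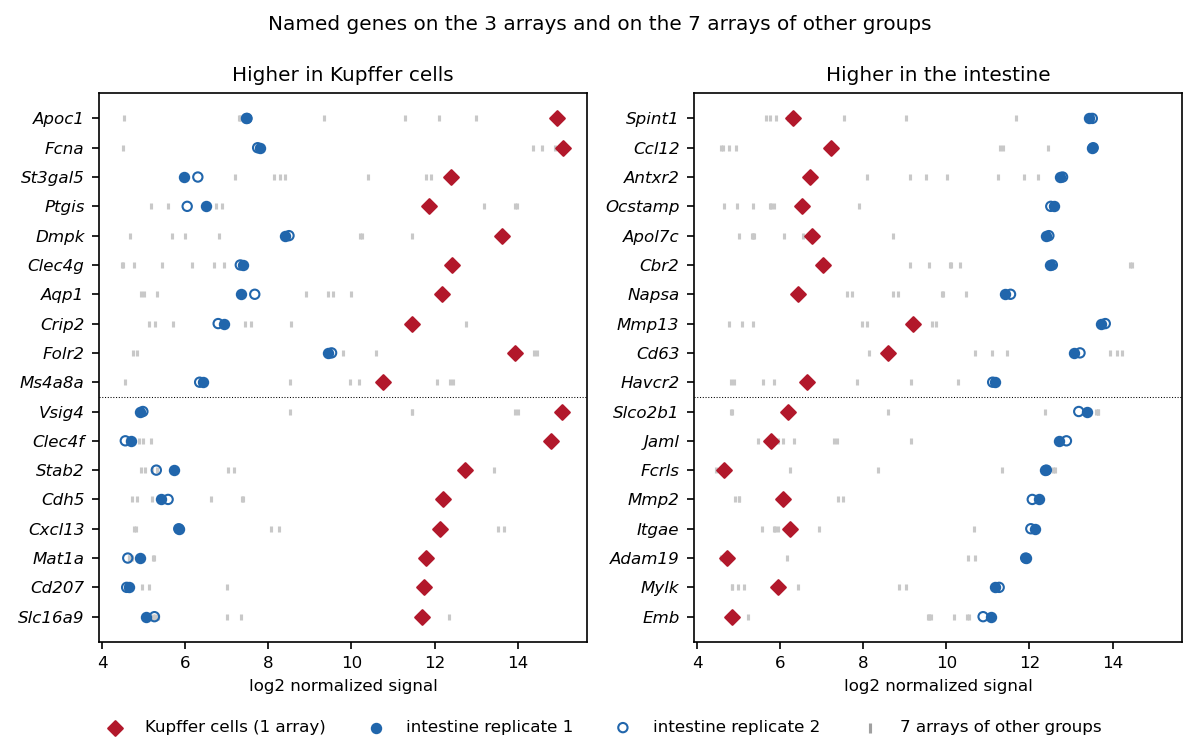
Log2 normalised signal of the 36 genes named by size of difference on the Kupffer array, the 2 intestinal arrays and the 7 arrays of the other groups (1 point per array). The Kupffer point lies outside the intestinal points for all 36 genes, as it does for 10190 of all 11036 members. A dotted line separates the 10 genes detected on all 3 arrays from the 8 detected in 1 tissue only.

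All 36 of these genes kept their call and direction under each of the 17 other settings tried, with a smallest difference of 3.17. With the brightness set as a block, the largest adjusted p among them was 0.000121. The 36 genes were chosen for large differences or high levels on these same arrays, so their kept calls are not independent support.

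Transcription factors that set macrophage identity had calls on both sides, 25% of those measured in Kupffer cells and 31.2% in the intestine. The shares of all named genes were 15.3% and 21.3%. Of 32 measured lineage regulators, 8 were higher in Kupffer cells and 10 in the intestine, which became 7 and 7 without intestine replicate 1 and 7 and 6 without intestine replicate 2. Nr1h3, the liver X receptor alpha on which Kupffer cells depend, read 13.91 against 10.72 and 10.56, 9.66-fold higher (adjusted p = 5.18e-05). Id3, an inhibitor of basic helix-loop-helix factors needed for Kupffer cell development in the mouse, read 12.07 against 7.99 and 7.74, 18.5-fold higher. Its relative Id1, a BMP target, read 10.77 against 6.33 and 5.48, a difference of 4.87 ± 0.55 (SE), and was detected on 1 of the 2 intestinal arrays. Spic, the factor of heme-driven macrophages, read 8.68 in Kupffer cells and was not detected in the intestine, at least 7.09-fold higher. Id2, Irf7, Tfec and Cebpb were also higher in Kupffer cells, Cebpb only by 0.70 and by -0.10 when medians were aligned.

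The intestinal side of the regulators held factors of dendritic-cell and monocyte programmes and of rapid stimulation. Irf4, a factor of CD11b-bearing dendritic cells and of alternative activation, read 6.40 in Kupffer cells and 9.25 and 9.07 in the intestine, 6.77-fold higher. Runx1 read 6.57 against 9.07 and 8.88, and Smad3, which carries TGF-beta signals, read 9.28 against 10.39 and 10.40. Atf3, Egr1, Egr2, Hes1, Irf1, Irf8 and Bhlhe40 were higher there as well, though other Irf1 probes were not called (-0.41 and 0.01). The myeloid master factor Spi1 (PU.1) read 9.83 against 10.54 and 10.43 and did not pass, nor did Cebpa (12.73 against 12.66 and 12.64), Maf or Pparg.

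Complement genes leaned to Kupffer cells. Of 12 measured, 8 were higher in Kupffer cells and 1 in the intestine, with a median difference of 1.56 (0.79 with medians aligned). Beside Vsig4, the regulator Cd55 was at least 4.29-fold higher, the alternative pathway protease Cfb read 9.74 against 7.50 and 7.21, and the terminal component C6 read 12.87 against 10.50 and 10.60. Serping1, the C1 inhibitor, was 2.21-fold higher in the intestine. The C1q chains did not pass: C1qa read 14.35 against 14.33 and 14.18, and C1qc 14.68 against 14.89 and 14.74.

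Of 22 genes of heme and iron recycling, 11 were higher in Kupffer cells, 2 in the intestine and 9 did not pass. The heme-degrading enzyme Hmox1 read 14.89 in Kupffer cells and 12.67 and 12.41 in the intestine, 5.11-fold higher (SE 0.22, adjusted p = 0.000271), and Slc40a1, which exports iron, was 6.85-fold higher. The plasma scavengers haemopexin (Hpx), at least 18.1-fold higher, and haptoglobin (Hp), 8.77-fold higher, belong to the same list, and both are made by hepatocytes. The ferritin chains Fth1 (14.12 against 14.09 and 14.04) and Ftl1 did not pass. Ceruloplasmin (Cp) was at least 2.56-fold and the transferrin receptor Tfrc 1.66-fold higher in the intestine. With any 1 intestinal or adipose array left out, 7 iron genes were called on the Kupffer side, and with medians aligned the count was 6 against 4.

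Lipid handling and sterol synthesis went in opposite directions. Of 18 genes of cholesterol efflux and lipid handling, 11 were higher in Kupffer cells and 3 in the intestine. Lipoprotein lipase (Lpl) read 13.79 against 9.63 and 9.66, 17.6-fold higher (adjusted p = 1.08e-05), and the desaturase Scd1 read 10.74 against 7.03 and 6.99. Apoc1 and Apoc4 were higher in Kupffer cells, and Apoe, their neighbour on chromosome 7, was not called (15.07 against 14.80 and 14.82). The oxysterol enzymes Ch25h and Cyp27a1 were 2.99-fold and 2.75-fold higher in the intestine, though another Cyp27a1 probe was not called (-0.06). Of 13 genes of sterol and fatty acid synthesis, 9 were higher in the intestine and 0 in Kupffer cells. Sqle, the squalene epoxidase, was at least 5.11-fold higher, Pmvk of the mevalonate pathway 6.84-fold, Elovl6 at least 2.20-fold and Cyp51 4.02-fold, while Fasn (8.27 against 7.79 and 7.83) did not pass. With medians aligned, the lipid count was 4 against 3 and the sterol synthesis count 0 against 10. Without 1 intestinal array, 6 lipid genes were called on the Kupffer side.

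Uptake receptors were divided. Of 19 scavenger and apoptotic cell receptors, 10 were higher in Kupffer cells and 4 in the intestine, a lead that turned to 4 against 5 with medians aligned. Stab2, Marco, Cd300lf and Scarb1 led the Kupffer side, Scarb1 with 13.54 against 11.67 and 11.44. Havcr2, the bridging proteins Gas6 (8.18 against 11.68 and 11.91) and Mfge8 (5.91, not detected, against 9.43 and 9.37), and Stab1 led the intestinal side. Of the other Stab1 probes, 1 was called the same way, by -2.75, and 1 the opposite way, by 2.26. Of 18 C-type lectins, 5 were higher in Kupffer cells (Clec4f, Cd207, Clec4g, Clec1b and Clec9a) and 7 in the intestine. Cd209b and Cd209a, of a family of close copies whose probes may not separate the members, were at least 8.05-fold and 6.17-fold higher in the intestine, Mgl2 was 7.80-fold and Clec5a at least 1.77-fold higher. The median difference of the lectins was 0.19, opposite in sign to their count.

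**Figure D3:**
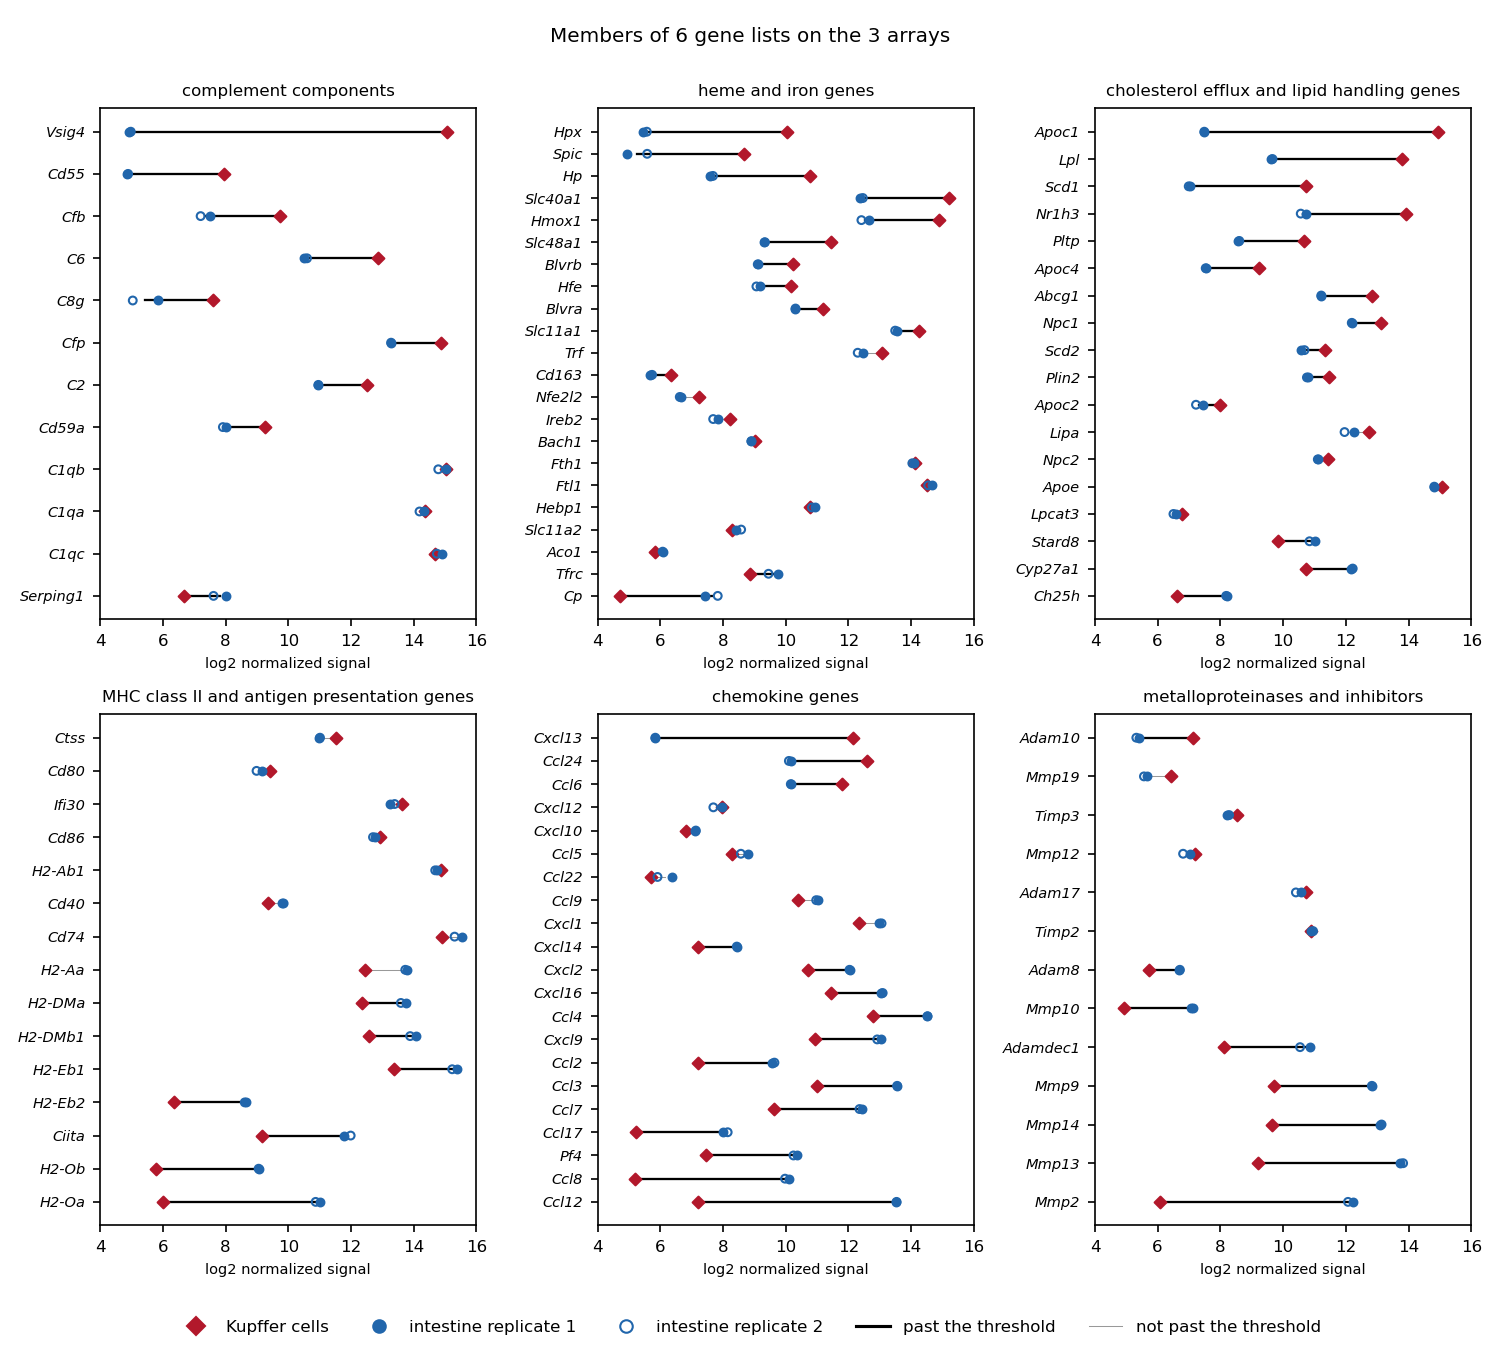
Log2 normalised signal (horizontal axis) of the measured members of 6 gene lists on the Kupffer array and the 2 intestinal arrays, 1 point per array, with dark connecting lines for genes past the threshold and pale lines for the others. Slc40a1, Hmox1, Lpl and Apoc1 lie to the right of both intestinal points, Ccl12, Mmp2 and Mmp13 to the left of them, and the C1q chains overlap or lie close.

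Antigen presentation genes were higher in the intestine where they differed. Of 15 measured, 7 were higher in the intestine and 0 in Kupffer cells, with a median difference of -1.31. H2-Oa read 6.00, not detected, in Kupffer cells and 11.02 and 10.87 in the intestine, at least 25.4-fold higher, and H2-Ob was at least 6.90-fold higher, though another H2-Ob probe was called the other way by 0.99. Both encode chains of H2-O, which restrains peptide loading. Ciita, the class II transactivator, read 9.16 against 11.78 and 11.99, 6.59-fold higher (adjusted p = 0.000461), though another Ciita probe was not called (-0.18). H2-Eb2 was 4.80-fold higher. The abundant H2-Aa (12.45 against 13.78 and 13.73), H2-Ab1 (14.86 against 14.74 and 14.69) and Cd74 (14.90 against 15.54 and 15.30) did not pass, and H2-Aa passed with the brightness set as a block (adjusted p = 0.00032). The peritoneal arrays differed by 1.25 at H2-Aa.

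Chemokine genes were higher in the intestine in 12 of 21 cases and in Kupffer cells in 3. Ccl8, a neighbour of Ccl12 on chromosome 11, was at least 13.6-fold higher in the intestine (5.20, not detected, against 10.12 and 9.98). Pf4 was 7.18-fold, Ccl17 at least 3.47-fold and Ccl7 6.73-fold higher, and Ccl3 read 10.98 against 13.54 and 13.55. Cxcl13, the eosinophil attractant Ccl24 (12.61 against 10.15 and 10.10) and Ccl6 were the genes higher in Kupffer cells. Of 18 chemokine receptor genes on the array, 12 were detected on none of the 3 arrays, and the 6 members were all higher in the intestine. Of these 6, 4 were detected on all 3 arrays. The other 2 were detected in the intestine only, so their direction is a description. Beside Cx3cr1, Ccr7, which guides migration to lymph nodes, was at least 8.12-fold higher, Cxcr4 was 6.00-fold, and Ccr2, the receptor of monocytes entering tissue, read 5.06, not detected, against 7.52 and 7.62. The receptor count was 5 with the brightness set as a block.

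Cytokine genes divided into different sets, 11 of 23 higher in Kupffer cells and 8 in the intestine, which turned to 5 and 9 with medians aligned. Il1a read 10.47 in Kupffer cells and 6.15 and 6.32 in the intestine, 18.9-fold higher (adjusted p = 1.35e-05). The interleukin 18 inhibitor Il18bp was 7.71-fold, the B cell survival factor Tnfsf13 (APRIL) 7.06-fold and Igf1 6.94-fold higher. On the intestinal side, Tnfsf13b (BAFF) read 7.38 against 11.02 and 11.07, 12.6-fold higher, so these related B cell factors differed in opposite directions. Osm was at least 7.20-fold, Tnf 8.47-fold and Tnfsf9 at least 1.35-fold higher in the intestine. Il1b did not pass (13.74 against 13.44 and 13.33).

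Genes of rapid stimulation were higher in the intestine without exception among those called. Of 22 NF-kB targets and feedback inhibitors, 13 were higher in the intestine and 0 in Kupffer cells, led by Traf1, Socs3, Gadd45b and Rel. Socs3, which limits cytokine signalling, read 9.98 against 12.67 and 12.69, 6.49-fold higher. Of 22 immediate early genes, 16 were higher in the intestine and 0 in Kupffer cells. Egr1 read 11.69 against 13.75 and 13.70, Atf3 read 9.88 against 12.36 and 12.52, and Egr2 was at least 2.45-fold higher. Of 13 heat shock and stress genes, 8 were higher in the intestine, led by Hspb1 (2.59-fold), Hspa5, Dnajb1 and Ddit3. Those 8 became 1 without intestine replicate 1 and 3 without intestine replicate 2, and the immediate early count became 10 and 13.

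Other signalling groups had calls on both sides. Of 21 Toll-like receptor pathway genes, 5 were higher in Kupffer cells and 3 in the intestine, a lead that turned to 1 against 7 with medians aligned and became 3 against 3 with the brightness set as a block. The Toll-like shares were 23.8% and 14.3%, compared with 15.3% and 21.3% of all named genes. Tlr8 was at least 4.41-fold higher in Kupffer cells, and Tlr5, the flagellin receptor, was at least 3.49-fold higher in the intestine (4.84, not detected, against 8.04 and 8.12). Interferon response genes were higher in Kupffer cells in 7 of 16 cases and in the intestine in 1. Among them, Ifit3 was at least 6.48-fold higher, Irf7 read 11.39 against 8.53 and 8.53, and Cmpk2 and Rsad2 were 4.76-fold and 3.65-fold higher. With medians aligned this count was 3 against 2. Of 9 Fc receptor genes, 3 were higher in Kupffer cells (Fcgrt, Fcrl1 and Pigr) and 2 in the intestine, which turned to 0 against 4 with medians aligned and to 1 against 2 with the brightness set as a block or without intestine replicate 2. With either intestinal array left out, the Toll-like receptor count was 3 against 2. The Fc receptor shares were 33.3% and 22.2%, compared with the same 15.3% and 21.3%. The inhibitory receptor Fcgr2b read 9.48 against 12.38 and 12.53, 7.83-fold higher in the intestine.

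Of 19 TGF-beta pathway genes, 4 were higher in Kupffer cells and 7 in the intestine. These shares of 21.1% and 36.8% compare with 15.3% and 21.3% of all named genes. Ltbp3, a latency protein, was at least 2.75-fold higher in the intestine, and the ligand Tgfb1 read 9.57 against 11.39 and 11.27, 3.37-fold higher, with Tgfbi and Ski. Tgfb3 read 8.03 against 6.37 and 6.63, 2.88-fold higher in Kupffer cells, with the BMP receptor Bmpr1a, the latency protein Ltbp4 and Tgfbr3. Without intestine replicate 1 the count was 3 against 4, and without intestine replicate 2 it was 2 against 3. Of 13 metalloproteinases and inhibitors, 7 were higher in the intestine and 1, Adam10, in Kupffer cells. Mmp14 read 9.63 against 13.09 and 13.14, 11.2-fold higher, and Mmp9 read 9.71 against 12.83 and 12.83, 8.66-fold higher.

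The calls of lysosomal proteases, glycolysis and cell cycle genes depended on single arrays. Of 11 lysosomal protease genes, 3 were higher in Kupffer cells (Ctsd, Ctsf and Lgmn) and 2 in the intestine (Ctsz and the inhibitor Cst3), which turned to 1 against 2 with medians aligned and became 1 against 0 without either intestinal array. Of 16 glycolysis genes, 2 were higher in Kupffer cells and 3 in the intestine, which turned to 2 and 1 without either adipose array. The glycolysis shares of 12.5% and 18.8% were near the 15.3% and 21.3% of all named genes. The lysosomal protease shares were 27.3% in Kupffer cells and 18.2% in the intestine, the second also near that of all named genes. The regulatory enzyme Pfkfb4 read 10.21 against 12.01 and 11.97, 3.45-fold higher in the intestine. Of 16 cell cycle genes, 8 were higher in the intestine, led by Mcm5, Cdc20, Top2a and Aurkb, and 1, Tk1, in Kupffer cells. The cell cycle count of 8 became 2 without intestine replicate 1 and 4 without intestine replicate 2 or an adipose array.

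**Figure D4:**
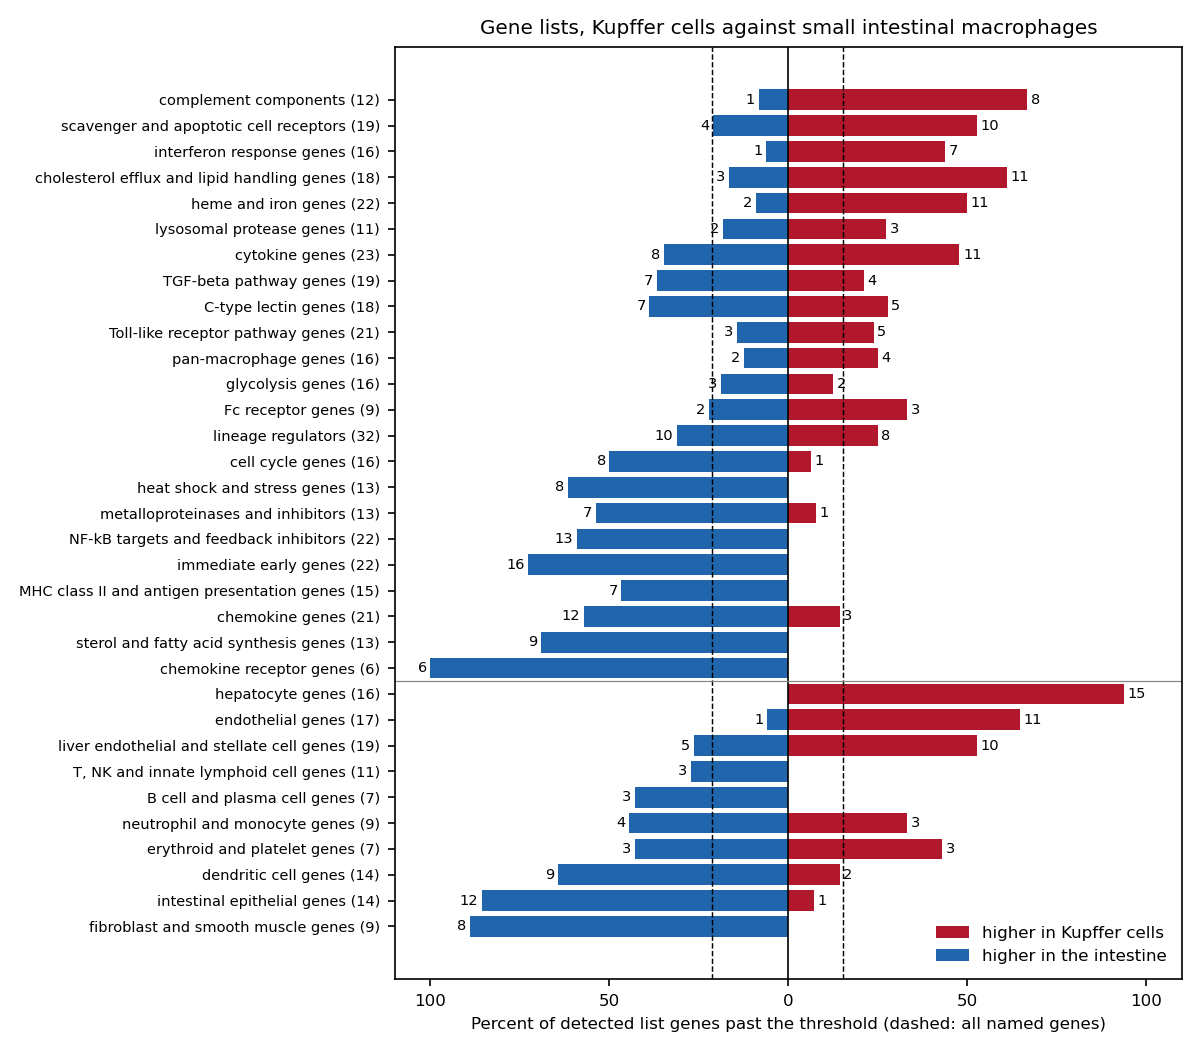
Percent of the measured members of each gene list (lists with at least 5 members, number in brackets) that were higher in Kupffer cells (to the right) and higher in the intestine (to the left) at an adjusted p under 0.05, with the number called beside each bar and dashed lines at the percentages of all named genes, 15.3% and 21.3%. Complement, iron and lipid lists lean to the right (8, 11 and 11 members) and chemokine, NF-kB and immediate early lists to the left (12, 13 and 16 members), and the leading side of the pan-macrophage, scavenger, cytokine, Toll-like, Fc receptor and lysosomal protease lists turned when medians were aligned.

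Markers of hepatocytes were detected on the Kupffer array. Of 16 hepatocyte genes among the members, 16 were detected there and 4 on the intestinal arrays. The 12 detected on the Kupffer array only passed the detection filter through the array where they are high, so their direction is a description. Of the 4 detected on all 3 arrays, 3 were higher on the Kupffer array. Apoa2, an apolipoprotein of high-density lipoprotein, read 11.62 in Kupffer cells against 5.11 and 4.90, at least 54.6-fold higher, and the drug-metabolising Cyp2e1 read 10.44 against 4.90 and 4.83. Serpina1b, from a family of near-identical genes that a probe may not separate, was at least 49.4-fold higher. The summed signal of the list was 25420 on the Kupffer array and 6608 and 5967 on the intestinal arrays, and 15720 to 28340 on the peritoneal, splenic and adipose arrays. The probe of albumin (Alb) was detected on 0 of the 10 arrays and gives no information here. The part of hepatocyte RNA in Mat1a, Hp, Hpx and Apoc1 was not tested.

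Endothelial genes were higher on the Kupffer array in 11 of 17 cases and in the intestine in 1, and in 6 and 1 of the 12 detected on all 3 arrays. Mmrn2 (9.28 against 6.00 and 5.74) and the junction protein Cldn5 (9.55 against 6.43 and 6.13) were 10.6-fold and 9.62-fold higher. Egfl7 was 9.02-fold higher, with another probe called the same way (2.19) and a further probe not called (0.14). Pecam1 (11.78 against 12.19 and 12.36) and Lyve1 did not pass. The summed signal of the endothelial list was 16590 on the Kupffer array and 7544 and 8246 on the intestinal arrays. Of 19 liver endothelial and stellate cell genes, 10 were higher in Kupffer cells and 5 in the intestine, and 7 and 7 with medians aligned. Of the 13 detected on all 3 arrays, 5 were higher in Kupffer cells and 4 in the intestine. Another 4 of the Kupffer calls were detected on the Kupffer array only. Their summed signal was lower on the Kupffer array (29680) than on the intestinal arrays (33520 and 34090). Cdh5 and Clec4g were higher on the Kupffer array too, and the part of endothelial RNA in them was not tested.

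Stromal and epithelial markers were detected mainly in the intestine. Of 9 fibroblast and smooth muscle genes among the members (of 23 on the array), 9 were detected there and 1 on the Kupffer array. That gene, the matrix proteoglycan decorin (Dcn), read 8.21 in Kupffer cells and 9.82 and 9.70 in the intestine, 2.94-fold higher there (adjusted p = 0.00124). The other 8 entered through the intestinal arrays, so their direction is a description, as it is for 10 of the 14 intestinal epithelial genes. The smooth muscle actin Actg2 read 4.63, not detected, against 10.34 and 10.36, at least 16.8-fold higher, and Acta2 was at least 24.6-fold higher. The summed signal of the fibroblast and smooth muscle list was 697 in Kupffer cells and 5151 and 5021 in the intestine. Mylk, Mmp2 and 12 of the 14 intestinal epithelial genes were also higher in the intestine than in Kupffer cells. The fibroblast and smooth muscle sum was larger on the peritoneal arrays (17570 and 16850), where Mylk read 4.84 and 4.83. The part of stromal RNA in Mylk and Mmp2 was not tested. The peptidase Anpep read 6.29 against 10.78 and 10.78, 22.4-fold higher, and the part of epithelial RNA in it was not tested. Fabp1 and Fabp2, which define absorptive cells, were detected on 0 of the 10 arrays and give no information here. The summed signal of the intestinal epithelial list was 1779 in Kupffer cells and 3684 and 3551 in the intestine. That sum was 10990 and 12210 on the peritoneal arrays, 5972 in bone marrow-derived macrophages and 618 to 3127 on the alveolar, splenic and adipose arrays. Of 30 intestinal epithelial genes on the array, 16 were not detected on any of the 3 arrays. Among them, Epcam, Cdh17, Krt20, Alpi and Muc2 were detected on 0 of the 10 arrays and give no information here. The defensin Defa20, from a family of close copies that a probe may not separate, was higher in the intestine. Another probe of Defa20 was called the same way (-4.32). Of 8 cholangiocyte markers on the array, 6 were detected on none of the 3 arrays. The other 2 (Tspan8 and Krt8) were higher in the intestine, where they also mark epithelium. Both were detected in the intestine only, so their direction is a description.

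Markers of other immune cells differed by cell type. Of 14 dendritic cell genes, 9 were higher in the intestine, 6 of them detected there only, led by Jaml, Itgae, Ccr7 and Dpp4, and 2 (Clec9a and Bst2) in Kupffer cells. Dpp4 read 8.69 against 11.50 and 11.50, though another Dpp4 probe was not called (0.21). Flt3 and Xcr1, other genes of dendritic cells, were detected on 0 of the 10 arrays and give no information here. Zbtb46 was higher in the intestine, with another probe called the same way (-1.43). The summed signal of the dendritic list was 17420 in Kupffer cells and 29260 and 29900 in the intestine. Of 7 B cell and plasma cell genes 3, of 11 T, NK and innate lymphoid genes 3, and of 2 eosinophil and mast cell genes 2 were higher in the intestine, and 0 of these lists in Kupffer cells. The T, NK and innate lymphoid share of 27.3% was near the 21.3% of all named genes, and 2 of its 3 calls were detected in the intestine only. Among 9 neutrophil and monocyte genes, 4 were higher in the intestine and 3 in Kupffer cells, where S100a8 was at least 7.64-fold higher. Of 3 enteric neuron and glia genes, Ncam1 was higher in the intestine. Among 7 erythroid and platelet genes, 3 were higher on each side, which became 1 on each side with any 1 intestinal or adipose array left out. Haemoglobin probes, which may not separate the copies, read 14.59 (Hbb-bt) in Kupffer cells against 10.98 and 11.12, but the peritoneal arrays differed by 2.75 at the same probe. The parts of these cells in the dendritic-type genes and in Tnfsf13b, Ccr2 and Ccr7 were not tested.

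**Figure D5:**
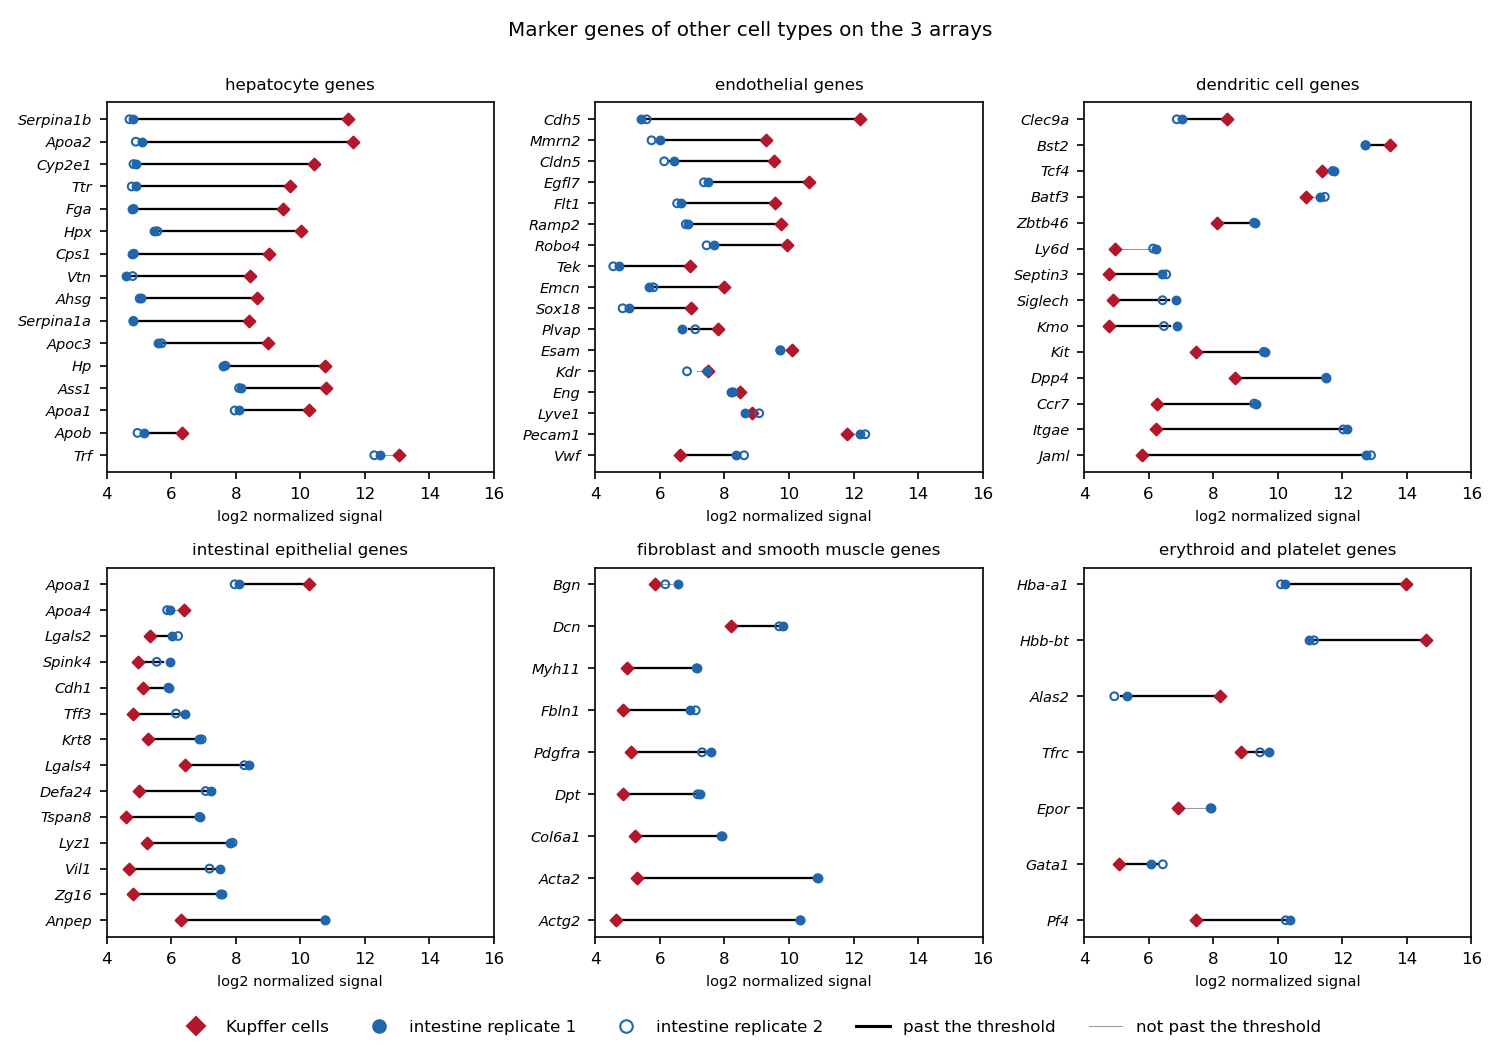
Log2 normalised signal (horizontal axis) of the measured marker genes of 6 other cell types on the Kupffer array and the 2 intestinal arrays, 1 point per array, with dark connecting lines for genes past the threshold. Hepatocyte markers such as Apoa2 and Cyp2e1 lie to the right on the Kupffer array, and smooth muscle markers such as Actg2 and Acta2 lie to the right on both intestinal arrays.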

How the data were processed

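Biotin-labelled cRNA of 10 RNA samples was hybridised to Illumina mouse bead arrays, 1 array per sample, and no array was left out of the fit. Per the file headers, the deposited signal table gives a linear intensity and a detection p-value per probe, with no normalization between arrays. The authors' own series values, also linear intensity, share 1 distribution over arrays by a method not given in the sources used here and served as an alternative. Probe names came from the platform annotation, updated through the mouse gene table (GRCm38.p6), and promoters came from RefSeq on the same build.

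The function neqc of limma (3.58.1, under R 4.3.3) removed the background that the detection p-values imply, added an offset of 16, aligned quantiles and gave log2 values of the deposited intensity. The brightest probe stood for a gene. Transcripts detected (p under 0.01) anywhere among the 10 arrays, 12845 in all, were fitted with 1 mean per group (7 groups, lmFit and eBayes, 3 residual and 4.02 prior degrees of freedom), and p-values were adjusted over all of them by Benjamini and Hochberg's method at 0.05. A level not detected on an array was taken at the lowest normalized value among that array's detected probes, or at its own value if higher, and the fold is then "at least". The fit was tested on simulated data. Precision is limited by the number of arrays.

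Genes were named by a rule: in each direction, among called genes with a plain symbol detected on every array of the higher group, the 10 largest differences detected on all 3 arrays and the 8 highest levels detected on no array of the lower group. From each list, up to 4 called genes per direction with the largest difference were taken, plus regulators, identity and pan-macrophage genes and members at the extremes of level. Other list members given as not passing, and called ones outside that rule, were added after their values were seen. Members and lists were chosen with earlier results of these data known. Of called genes with a further member probe (662), 42 had a probe called the opposite way and 357 had every other probe called the same way. Columns of per-sample values left unused numbered 0.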

Additional observations from a re-analysis of the deposited data

How the results depend on the processing

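No member called in 1 direction was called in the other under any of the 17 alternatives, and the 36 genes named by size of difference kept their calls under all of them. Aligning medians in place of quantiles moved the counts to 512 higher in Kupffer cells and 4652 in the intestine. It also turned the leading side of 6 lists, with 1 pan-macrophage, 4 scavenger receptor, 5 cytokine, 1 Toll-like receptor pathway, 0 Fc receptor and 1 lysosomal protease genes then higher in Kupffer cells. It turned the sign of the difference of Bst2 to -0.0196, and of those of Cebpb (-0.10), Ctsf (-0.12), Fcrl1 (-0.12), Pigr (-0.16) and Lyve1 (-1.08). The median difference of all members moved with it from -0.0867 to -0.974. The 3 arrays fitted alone, with 1 residual degree of freedom, called 2695 in Kupffer cells. With 1 array left out at a time, counts ran from 1030 to 2708 in Kupffer cells and from 1337 to 3508 in the intestine. The lowest counts came without an intestinal array, which leaves 1 array in that group, assumed to vary like the other groups. Lists that turned were the lineage regulators (6 to 12 higher in the intestine) and the Fc receptors (1 to 3 in Kupffer cells) without intestinal array 2, and glycolysis (1 to 5 in the intestine) without either adipose array, and with 1 when no filter on detection was set. The cause of these turns was not tested. With the brightness set as a block, 1 Fc receptor gene was higher in Kupffer cells and Lyve1 was lower there (-1.32). Of 193 genes given in the text, 179 had the same call, or as before none, with the block, 165 with aligned medians, and 172 and 169 without intestinal array 1 and 2. No paired analysis was possible because Kupffer cells have 1 array, so the groups share fewer than 2 replicate numbers. Signal over background limits the low end: the lowest detected level was 6.28 on the Kupffer array and 5.85 on both intestinal arrays, so genes between these levels could be detected in the intestine and missed in Kupffer cells.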
